A study of Homo sapiens with 20 samples.

Results

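The H3K27ac landscape of 8 genes of the NOTCH pathway was followed in HCT-116 cells, a human colorectal cancer cell line. The genes were the receptors NOTCH1, NOTCH2 and NOTCH3, the ligands JAG1 and JAG2, and HES1, HES4 and NRARP, which NOTCH signalling activates in many tissues. They were chosen by name among 20033 protein-coding genes of the GENCODE annotation, and every deposited peak or super-enhancer (SE) that overlapped the gene body or the 10 kb on either side of it was assigned to the gene. The windows held 214 of the 271550 peaks that the 16 libraries carried on chromosomes 1 to 22, X and Y.

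Acetylation of lysine 27 of histone H3 marks active promoters and enhancers, and an SE is a cluster of such regions with an exceptionally high total signal. The cells were wild type (WT) or lacked FBXW7 (KO, FBXW7-/-), and in each background they received for 48 h an esiRNA pool against a control sequence (esiCT) or against HDAC4 (esiHDAC4). For the last 24 h they were left untreated (UNT) or exposed to 50 µM oxaliplatin (OXPT), a platinum drug that crosslinks DNA. Each of the 8 combinations was represented by 2 ChIP-seq libraries, lettered replicate A and replicate B, so that each genotype, each esiRNA and each treatment was carried by 8 libraries. The KO cells came from a commercial supplier and the mutation was checked by Sanger sequencing, but the sources used here do not state how many clones they represent. A clonal difference and the loss of FBXW7 therefore cannot be told apart. The labels state that 3 independent experiments were combined, without saying how these relate to the letters, so the p-values measure the spread between these libraries, which may be technical.

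NOTCH receptors are single-pass membrane proteins that are cut by ADAM metalloproteases and then by gamma-secretase when a Delta-like or Jagged ligand on a neighbouring cell binds to them. The released intracellular domain enters the nucleus, where it joins the DNA-binding protein RBPJ and a Mastermind co-activator to switch on genes such as HES1 and NRARP. In the intestinal epithelium the pathway keeps progenitor cells dividing and holds back secretory differentiation, mainly through the repressor HES1. FBXW7 is the substrate-recognition subunit of an SCF ubiquitin ligase, and the intracellular domain of NOTCH1 is among its classical substrates. HDAC4 is a class IIa histone deacetylase that acts with co-repressor complexes, and the study describes this class as catalytically inactive.

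The peak lists differed in length, and this bears on every value given here. They held between 1752 and 27927 peaks, with 10562 to 27927 in the WT libraries, 12639 to 21875 in the KO replicate A libraries and 1752 to 8216 in the KO replicate B libraries. The background coverage read back from the peak values, an index of depth, was 1.65 to 3.07 reads in WT, 1.52 to 2.89 in KO replicate A and 1.02 to 1.51 in KO replicate B, and at this coverage a summit needed a fold of 3.49 to 3.96 to pass in KO replicate B and of 2.88 to 3.40 in WT, while over a higher local background peaks were called at lower folds. Of the epithelial markers reported here, KRT8 and KRT18 carried a peak in all 16 libraries, EPCAM in 15, CDX2 in 11 and CDH1 in 10, whereas CDH17 did in 3, CDX1 in 2, VIL1 in 1 and KRT20 in none. Of 8 markers of other cell types, COL1A1 carried a peak in 12 libraries, PECAM1 in 11, GFAP in 8, DES in 6, COL3A1 in 3 and PTPRC in 2, and CD3E and ALB in none. A peak at FBXW7 or HDAC4 does not report on the deletion or the knockdown; FBXW7 had a peak in 3 KO and 7 WT libraries, and HDAC4 in all of them.

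The first sequences printed here surround matches to the core of the RBPJ motif at the promoters of HES1 and HES4. The others are the centres of 3 regions that were called in all 4 untreated WT libraries and in none of the 4 OXPT-treated WT libraries. The first block gives the 250 bases before the HES1 start (RefSeq, GRCh38.p14, chr3:194135898-194136147, plus strand) and 30 bases of the HES4 promoter (RefSeq, GRCh38.p14, chr1:1000156-1000185, minus strand), which overlap an exon and untranslated region of an annotated HES4 transcript. Capitals mark TGGGAA, the core of the RBPJ motif.
HES1 promoter: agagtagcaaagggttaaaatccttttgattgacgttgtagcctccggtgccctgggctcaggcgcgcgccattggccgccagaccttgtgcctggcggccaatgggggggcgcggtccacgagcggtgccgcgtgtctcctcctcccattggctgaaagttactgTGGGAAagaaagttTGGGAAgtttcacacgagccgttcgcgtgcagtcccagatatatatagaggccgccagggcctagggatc
HES4 promoter site: ctggggcgagtgTGGGAAagaatgcggagc

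The HES1 promoter held 2 copies of TGGGAA in the same orientation. Among 35116 RefSeq promoters of this length, 20.9% held the motif on either strand and 2.90% held it 2 or more times. HES4 had 1 match and the other 6 genes had none in the 250 bases before their starts. None of the 16 libraries measured RBPJ, so these matches describe the sequence and not a bound site.

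The second block gives the 201 bases around the summit of each of the 3 regions, on the plus strand of hg38. The HES1 region lies downstream of the gene and outside annotated coding genes (chr3:194142442-194142642), the NRARP region lies upstream of the gene in an intron of EXD3 (chr9:137311839-137312039), and the NOTCH3 region lies in an intron of NOTCH3 (chr19:15195144-15195344). Capitals mark the letters to which HES proteins bind, CACGNG and CACNAG, read on both strands.
HES1 downstream region: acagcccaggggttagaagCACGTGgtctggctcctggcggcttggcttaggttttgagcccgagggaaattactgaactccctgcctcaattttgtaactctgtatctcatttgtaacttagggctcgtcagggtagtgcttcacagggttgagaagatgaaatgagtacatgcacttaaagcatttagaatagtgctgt
NRARP upstream region: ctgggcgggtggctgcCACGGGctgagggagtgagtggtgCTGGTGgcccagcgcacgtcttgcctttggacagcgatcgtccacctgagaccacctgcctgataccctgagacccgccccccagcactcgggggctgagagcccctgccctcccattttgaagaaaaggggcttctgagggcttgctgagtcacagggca
NOTCH3 intronic region: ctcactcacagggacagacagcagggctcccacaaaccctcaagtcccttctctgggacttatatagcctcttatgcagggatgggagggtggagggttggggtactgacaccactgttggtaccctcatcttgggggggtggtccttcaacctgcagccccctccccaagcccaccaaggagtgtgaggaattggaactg

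The HES1 region held CACGTG, which matches CACGNG on both strands. The NRARP region held 1 match to CACGNG and 1 to CACNAG, the latter on the minus strand. The NOTCH3 region held neither, and none of the 3 held TGGGAA. These are common letters, since 19.4% of the 10205 regions called in all 4 untreated WT libraries held CACGNG in a window of this size, 26.7% held CACNAG and 16.5% held TGGGAA.

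How densely the genes were marked was examined first. Per 10 kb of window, WT cells carried most peaks at the small target genes, with 1.47 ± 0.852 at HES4, 1.16 ± 0.851 at HES1 and 0.939 ± 0.725 at NRARP (mean ± SD, n = 8 libraries). The receptor and ligand windows followed with 0.628 ± 0.269 at NOTCH1, 0.422 ± 0.132 at JAG1, 0.340 ± 0.248 at JAG2 and 0.242 ± 0.173 at NOTCH3, and NOTCH2, the longest gene at 189 kb, came last with 0.0418 ± 0.0306. Neighbours in this order differed by less than the larger of their SDs, except NOTCH3 and NOTCH2. The order depends on window length, since every window includes the same flanks, and those of HES4, HES1 and NRARP (21.2 to 22.6 kb) are mostly flank. By number per window NOTCH1 had the most peaks in WT, with a mean of 4.50, against 3.12 at HES4, 2.62 at HES1 and 2.12 at NRARP. The HES4 window also holds ISG15, an interferon-stimulated gene transcribed from a start within the same 4.80 kb region, so its peaks cannot be assigned to HES4 alone. NOTCH2 has near-identical NOTCH2NL copies on chromosome 1, and reads shared between these could have been lost or misplaced in mapping.

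The strength of the marks followed another order. The strongest summit of a gene, expressed as fold over local background, had its highest median at HES4 (6.43, range 4.72 to 10.3 over the 12 libraries with a peak) and at NOTCH1 (6.02, range 4.04 to 7.98, 12 libraries). Next were NOTCH3 (5.63, 10 libraries), JAG1 (5.28, 13 libraries) and HES1 (4.53, 12 libraries). JAG2 (4.22, 11 libraries), NOTCH2 (4.17, 10 libraries) and NRARP (3.98, 10 libraries) had the weakest summits. The median summit of HES4 exceeded 96.7% of the peaks in its own library and that of NOTCH1 exceeded 91.5%, against 55.5% for NRARP. The ranges of neighbours in this order overlapped. A summit rested on 9 to 34 reads, and for the median of 16 reads the exact 95% Poisson interval was 9.14 to 26.0 reads, which covers counting error only.

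**Figure D1:**
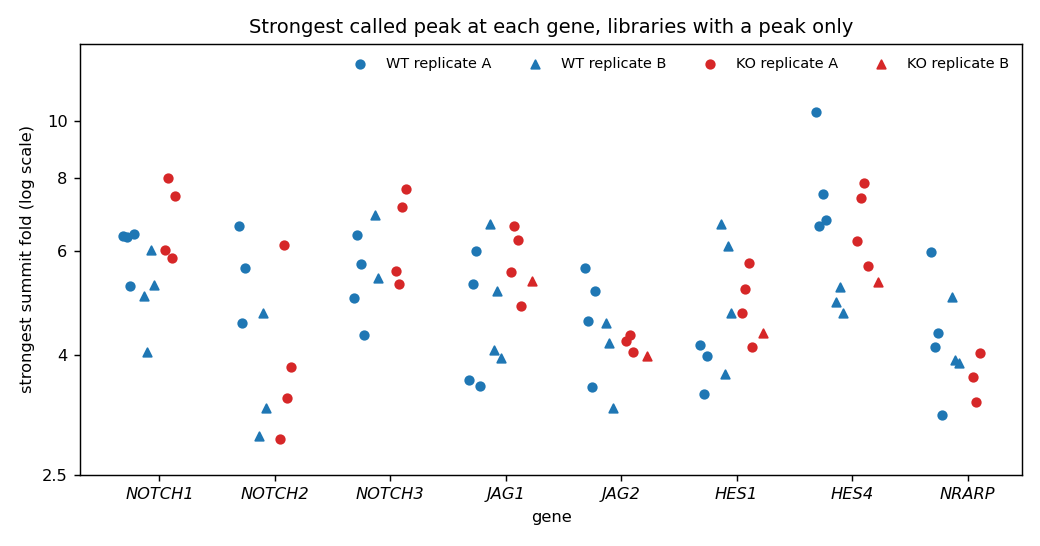
Strongest summit fold over local background (y axis) at each gene in each library with a peak, with WT and KO libraries marked separately. HES4 and NOTCH1 reach the highest values (10.3 and 7.98) and NRARP does not exceed 5.99.

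The peaks were concentrated in few places. Across libraries they merged into 38 regions, of which 17 were called in 1 library alone (51.9% of the merged regions of the genome were), and the most frequent was called in 13 libraries. This was the JAG1 start (chr20:10670863-10675532, 8 WT and 5 KO libraries, fold 2.52 to 6.67). The NOTCH1 start (chr9:136544160-136548131) was called in 11 libraries, and a second NOTCH1 region 4.5 kb upstream (chr9:136549465-136552171) in 12, in each case 4 of them KO. The NOTCH3 start (chr19:15200043-15201152) was called in 6 WT and 4 KO libraries with folds of 4.32 to 7.65, and the NOTCH2 start (chr1:120068716-120069624) in 6 WT and 2 KO libraries.

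At JAG2 the recurrent region lay inside the gene and reached the vicinity of its start (chr14:105165197-105168306, 7 WT and 4 KO libraries). HES4 had its recurrent region over the starts of HES4 and ISG15 (chr1:998264-1003063, 7 WT and 5 KO libraries) and another inside ISG15 (chr1:1004831-1007099, 6 WT and 4 KO libraries). The most frequent regions of HES1 were one just inside the gene, next to its start (chr3:194136257-194137707), and a region 4.9 kb from the start (chr3:194139855-194141417), called in 5 WT and 3 KO libraries each. NRARP was called most often 6.1 kb downstream of its start (chr9:137294585-137297063, 6 WT libraries and 1 KO library). Of the 38 regions, 17 were called in no KO library and 4 in no WT library, where 45% and 19.4% of the 58860 merged regions of the genome were so.

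**Figure D2:**
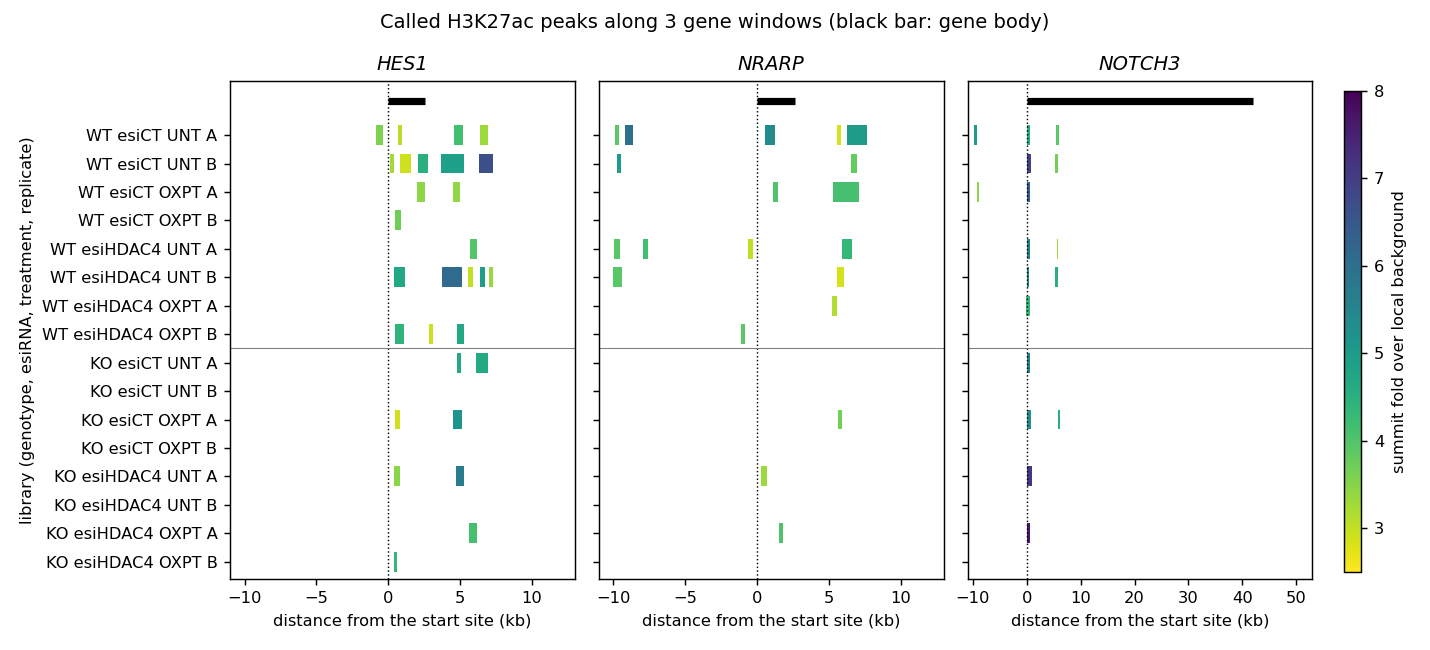
Positions of the called peaks relative to the start sites of HES1, NRARP and NOTCH3 (x axis, kb) in the 16 libraries (rows), coloured by summit fold. The mark near the start of NOTCH3 is present in all 8 replicate A libraries, whereas most KO replicate B rows are empty.

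All 8 genes had fewer peaks on average in KO than in WT cells, but none passed the test after adjustment. The question here was whether loss of FBXW7 changes acetylation at the genes of a pathway whose receptor FBXW7 turns over. An average lower in KO was also the rule for the genome, with 86.5% of the 15824 genes with at least 1 peak. The two-sided exact permutation test, in which genotype was exchanged within replicate letters, called 0% of these genes at an adjusted p below 0.05 (Benjamini-Hochberg), while 3522 genes had an unadjusted p below 0.05. Its smallest p is 0.000408, which at least 130 genes would have to share before any could be called. At an unadjusted p below 0.05, 22.2% of all genes were lower in KO, and NOTCH1, NRARP and JAG1 were the 3 of 8 members among them. The median difference was -1.12 peaks over the members and -0.625 over all genes.

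NOTCH1 had the largest difference among the members. WT libraries held 2 to 8 peaks at NOTCH1 (median 4.5), and KO libraries 0 to 4 (median 1). All 4 KO replicate B libraries were empty, and the 4 KO replicate A libraries with 2 to 4 peaks overlapped the WT range. The means were 1.62 ± 1.85 in KO and 4.50 ± 1.93 in WT (SD, n = 8 each), a difference of -2.88 peaks (exact permutation p = 0.00245, adjusted p = 0.0842). Within replicate A the difference was -2 (p = 0.171, exact permutation) and within replicate B -3.75 (p = 0.0286, exact permutation, the smallest p that 4 against 4 libraries allow). Without WT esiCT OXPT replicate B, the shortest WT list, the adjusted p was 0.0449 (exact permutation, difference -3.17), and 909 genes were then called. A region at the edge of the window (chr9:136483510-136484912, 2 WT and 2 KO libraries) lies at the start of SEC16A, so its peaks cannot be assigned to NOTCH1 alone. With the gene body alone the difference at NOTCH1 was -1.625 (exact permutation p = 0.0245, adjusted p = 0.234).

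NRARP encodes an ankyrin-repeat protein that NOTCH induces and that limits the NOTCH nuclear complex in return. WT libraries held 0 to 5 peaks (median 2) and KO libraries 0 or 1. The 3 KO libraries with a peak were all replicate A, and only 1 WT library, esiCT OXPT replicate B, had none. The means were 0.375 ± 0.518 in KO and 2.12 ± 1.64 in WT (SD, n = 8 each), a difference of -1.75 (exact permutation p = 0.00816, adjusted p = 0.118). This was the only member whose difference was larger within replicate A (-2.25, exact permutation p = 0.114) than within replicate B (-1.25, exact permutation p = 0.143). Without WT esiCT OXPT replicate B the adjusted p was 0.0446 (exact permutation, difference -1.96). With the gene body alone the difference was 0, so the difference lay in the flanks. The upstream flank overlaps the coding gene EXD3, and peaks there cannot be assigned to NRARP alone.

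JAG1, a ligand that activates NOTCH receptors on the neighbouring cell, had a peak in 8 of 8 WT and 5 of 8 KO libraries. Its numbers were 2 to 4 in WT and 0 to 3 in KO, with a difference of -1.12 (exact permutation p = 0.0184, adjusted p = 0.158). Replicate A libraries accounted for little of it, since their difference was -0.500 (exact permutation p = 0.714) against -1.75 (exact permutation p = 0.0286) in replicate B.

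The other members had smaller or more variable differences. HES1 averaged 1.00 ± 0.926 peaks in KO and 2.62 ± 1.92 in WT (SD, n = 8 each), with 1.75 in both genotypes within replicate A. HES4, a HES1 relative that mice lack, averaged 2.00 ± 1.93 in KO and 3.12 ± 1.81 in WT. The differences were -1 at JAG2, -0.875 at NOTCH3 and -0.375 at NOTCH2. Unadjusted exact permutation p-values of these 5 genes ran from 0.0796 (NOTCH3) to 0.347 (NOTCH2).

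**Figure D3:**
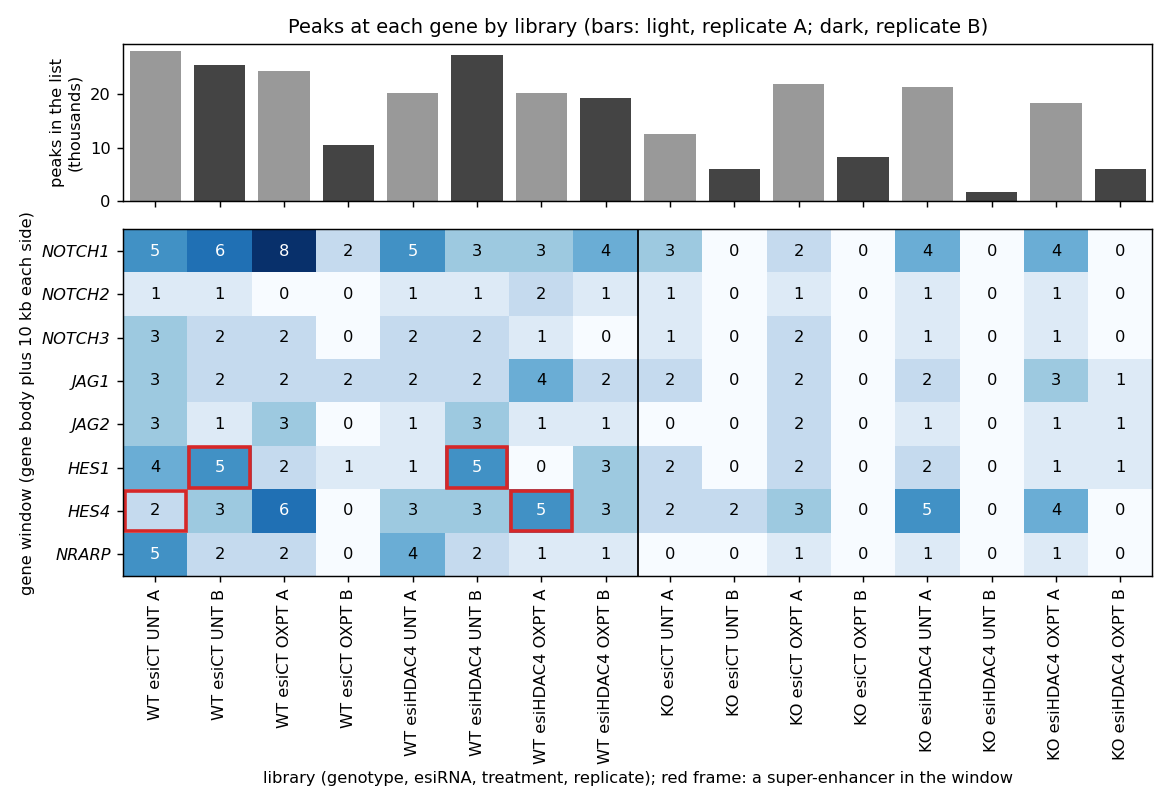
Number of H3K27ac peaks (cell colour and printed number) in the window of each gene (rows) in the 16 libraries (columns), ordered by genotype, esiRNA, treatment and replicate. Bars above give the length of each peak list, and red frames mark a super-enhancer in the window. KO replicate B libraries hold 0 peaks for NOTCH1, NOTCH2, NOTCH3 and NRARP, and NOTCH1 reaches 8 in WT esiCT OXPT replicate A.

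These differences moved with the length of the lists. Summed over the 8 genes, WT libraries held 5 to 26 peaks, KO replicate A libraries 11 to 17 and KO replicate B libraries 0 to 3. No KO replicate B library had a peak at 4 of the members, NOTCH1, NOTCH2, NOTCH3 and NRARP, and the same held for 54.1% of all genes. In turn 4 members, NOTCH1, NOTCH3, JAG1 and HES4, had a peak in all 8 replicate A libraries, as did 37.3% of all genes. Within replicate A, KO was lower at 6 of 8 members and equal at NOTCH2 and HES1, where 59.5% of all genes were lower. Expressed per 10000 peaks of the library, NOTCH1 differed by -1.14 (exact permutation p = 0.00816, adjusted p = 0.188) and NRARP by -0.706 (exact permutation p = 0.00408, adjusted p = 0.150), whereas JAG1 (-0.326) and HES4 (-0.0288) differed by less than their SDs. With every list reduced to the 1752 peaks with the smallest p NOTCH1 differed by 0 and JAG1 by 0.375, and NRARP had no peak left. With covered kb in place of peak number, NOTCH1 (-2 kb, adjusted p = 0.0320), HES4 (-1.77 kb, adjusted p = 0.0346) and NRARP (-1.08 kb, adjusted p = 0.0423) were called in the exact permutation test, and so were 2090 genes in all.

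**Figure D4:**
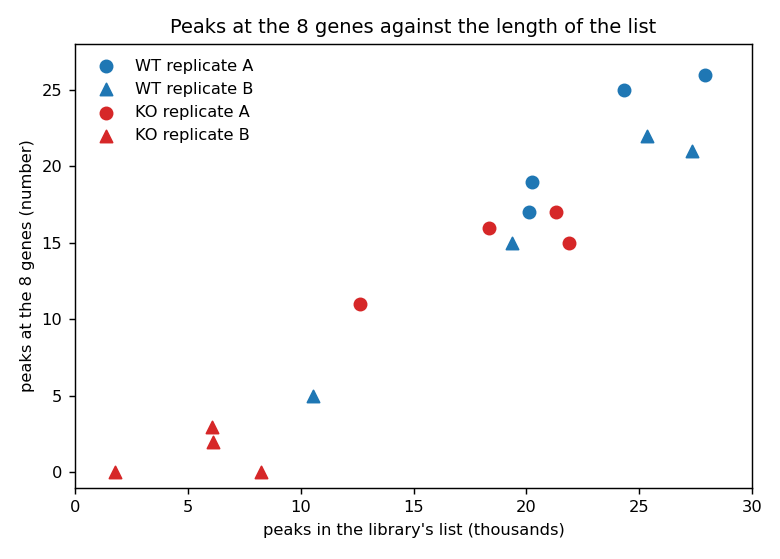
Peaks at the 8 genes together (y axis) against the length of the library's peak list (x axis), 1 point per library, with genotype and replicate marked. The KO replicate B libraries, with lists of at most 8216 peaks, hold 0 to 3 peaks, and the KO replicate A libraries hold 11 to 17, within the WT range of 5 to 26.

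Where a peak was called, no difference in its strength between KO and WT passed the test, which had little room to call any gene. None of the 8 genes had a peak in all 16 libraries, and the summit fold could therefore be compared at NOTCH1, NOTCH3, JAG1 and HES4 within the 8 replicate A libraries. There the mean strongest fold at JAG1 was 5.77 in KO and 4.49 in WT, a log2 difference of 0.36 (SE 0.22, n = 4 each, exact permutation p = 0.171, adjusted p = 0.563). At NOTCH3 it was 6.33 and 5.29 (log2 difference 0.26, SE 0.18, adjusted p = 0.583, exact permutation), and at NOTCH1 6.76 and 6.07 (log2 difference 0.15, SE 0.13, adjusted p = 0.663, exact permutation). At HES4 the KO mean was the lower, at 6.72 against 7.69 (log2 difference -0.19, SE 0.18, adjusted p = 0.696, exact permutation). None of the 5903 genes compared in this way was called, 480 had an unadjusted p below 0.05, and the median log2 difference over the 5903 was -0.12. With 70 arrangements the smallest p of this exact permutation test is 0.0286. Far more than 480 genes would have to share it before any could be called, so the missing calls do not decide the question. A peak has to pass the caller's threshold to carry a fold, and at background coverage the fold needed was highest in the KO replicate B libraries.

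No member passed the test for OXPT over both genotypes. The comparison asked how 24 h of the drug altered the mark at these genes. Mean peak number was lower with OXPT at 5 of 8 members, NOTCH1, NOTCH2, NOTCH3, HES1 and NRARP, against 58.6% of all genes. HES1 had 1.25 ± 1.04 peaks with OXPT and 2.38 ± 2.07 without (SD, n = 8 each, difference -1.12, exact permutation p = 0.256, adjusted p = 1). NRARP differed by -1 (exact permutation p = 0.227) and NOTCH3 by -0.625 (exact permutation p = 0.231). JAG1 differed by 0.375, HES4 by 0.125 and JAG2 by 0. Of all genes 184 had an unadjusted p below 0.05 and none was called. Within replicate A the mean strongest fold at NOTCH1 was 7.015 with OXPT and 5.853 without. The log2 difference was 0.26 (SE 0.10, n = 4 each, exact permutation p = 0.0571, adjusted p = 0.640), while 82.4% of the 5903 genes compared were lower. It was -0.25 at HES4, -0.084 at JAG1 and -0.0042 at NOTCH3.

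Within WT cells, HES1, NRARP and NOTCH3 had fewer peaks with OXPT in each of the 4 matched pairs. The split by genotype was chosen after seeing the data and the 3 genes were singled out for this pattern, so their values are given without a test. HES1 had 4 peaks without and 2 with OXPT in esiCT replicate A, 5 and 1 in esiCT replicate B, 1 and 0 in esiHDAC4 replicate A and 5 and 3 in esiHDAC4 replicate B. In the same order NRARP had 5 and 2, 2 and 0, 4 and 1, and 2 and 1. NOTCH3 had 3 and 2, 2 and 0, 2 and 1, and 2 and 0. The direction was thus shared by both esiRNAs and both letters, although untreated and treated ranges overlapped at all 3 genes. With the gene body alone, the OXPT difference over both genotypes was -0.125 at HES1, 0 at NRARP and -0.625 at NOTCH3. Over both genotypes the difference at HES1 and NRARP thus lay mostly or wholly in the flanks.

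The mean WT response was -2.25 ± 1.26 peaks at HES1, -2.25 ± 0.957 at NRARP and -1.50 ± 0.577 at NOTCH3 (SD, n = 4 pairs). Fewer peaks in 4 of 4 WT pairs were found at 6.84% of all genes, and at 11.2% of the 9624 genes with a peak in all 4 untreated WT libraries, a condition that all 3 genes met. The WT lists themselves were shorter with OXPT in each pair. Per 10000 peaks the same 3 members were lower in 4 of 4 pairs, as were 4.97% of all genes, with mean responses of -0.603 ± 0.314 at HES1, -0.863 ± 0.522 at NRARP and -0.566 ± 0.246 at NOTCH3. In peak number NOTCH1 did not share this pattern, with responses of 3, -4, -2 and 1 peaks, nor did HES4, with 4, -3, 2 and 0. In covered kb, however, NOTCH1 was also lower in 4 of 4 WT pairs, with a mean of -1.75 ± 1.31 kb. HES1, NRARP and NOTCH3 were lower in 4 of 4 pairs by this measure too (HES1 -1.77 ± 1.43 kb), and HES4 in 3 of 4. The share of all genes was not counted for covered kb.

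In KO cells the same genes started from fewer peaks and had no common direction. The responses were 0, 0, -1 and 1 at HES1, and 1, 0, 0 and 0 at both NRARP and NOTCH3, where no replicate B library had a peak. The mean KO response minus the mean WT response was 2.5 peaks at NRARP, 2.25 at HES1, 1.75 at NOTCH3 and 1.5 at JAG2, 0.25 at NOTCH1, NOTCH2 and JAG1, and -1.25 at HES4. Whether the responses differ between genotypes was not tested.

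**Figure D5:**
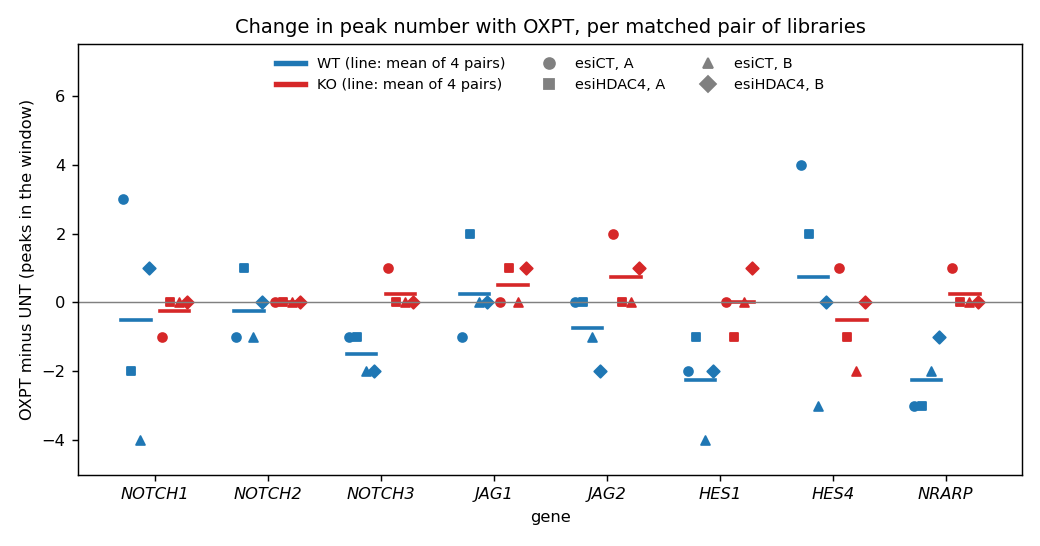
Change in peak number from UNT to OXPT (y axis) at each gene, 1 point per matched pair of libraries, for WT and KO cells. All 4 WT points lie below 0 at HES1, NRARP and NOTCH3, between -4 and -1.

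Each of these 3 genes had 1 region that was called in all 4 untreated WT libraries and in no treated WT library, and it held part of the difference. Outside it, in the order of pairs used above, the number of peaks still differed by -1, -3, 0 and 1 at HES1, by -2, -1, -2 and 0 at NRARP, and by 0, -1, 0 and -1 at NOTCH3, whose start was not called in the treated WT replicate B libraries. The HES1 region 6.4 kb from the start (chr3:194141723-194143459, summit bases printed above as the HES1 downstream region) had strongest folds of 3.31 and 6.67 in esiCT replicates A and B and 3.98 and 4.97 in esiHDAC4 replicates A and B. In KO it was called in esiCT UNT replicate A (4.65) and in esiHDAC4 OXPT replicate A (4.12), so that 1 treated KO library carried it.

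The NRARP region 9.7 kb upstream (chr9:137311688-137312288), the one with both HES-type motifs, was called in the 4 untreated WT libraries and nowhere else, with folds of 3.89, 5.01, 3.93 and 3.92 in the same order. The NOTCH3 intronic region 5.8 kb from the start (chr19:15194892-15195798) had folds of 3.91, 3.67, 3.28 and 4.50 in untreated WT cells, and was called again only in KO esiCT OXPT replicate A (4.50). Of 10205 regions of the genome called in all 4 untreated WT libraries, 357 (3.5%) were called in no treated WT library, and so were 3 of the 12 such regions at the members. The summits rested on 12 to 27 reads. Among the starts, those of NOTCH1, NOTCH3, JAG1 and HES4 were called in both treated WT replicate A libraries. In treated WT replicate B, the NOTCH3 start was called in neither library, the NOTCH1 and HES4 starts were missing in esiCT, and the JAG1 start was called in both.

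esiHDAC4 left the members without a detectable difference. The comparison asked whether depletion of HDAC4 changes acetylation at these genes in either direction. Mean peak number was higher with esiHDAC4 at 3 of 8 members, HES4 (by 0.625), NOTCH2 (by 0.375) and JAG1 (by 0.375), against 41.3% of all genes. NOTCH1, NOTCH3 and HES1 each differed by -0.375, and JAG2 and NRARP by 0. All adjusted p-values were 1 in the exact permutation test, with 29 genes at an unadjusted p below 0.05 across the genome. NOTCH1, for instance, held 0 to 5 peaks with esiHDAC4 (median 3.5) and 0 to 8 with esiCT (median 2.5), and the ranges overlapped at all 8 members. Within replicate A the strongest fold differed by log2 values between -0.12 (HES4) and 0.13 (NOTCH3), where the median over 5903 genes was -0.13.

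SEs were called near 2 of the 8 members, HES1 and HES4, where 8.07% of all genes had one in at least 1 library. Both HES1 SEs came from untreated WT replicate B libraries. In esiCT the SE covered 5.22 kb (chr3:194138239-194143459) and in esiHDAC4 3.54 kb (chr3:194139879-194143419), and both overlapped the downstream region that was not called in treated WT cells. The HES4 SEs were in WT esiCT UNT replicate A (19.8 kb, chr1:1005632-1025412), which lies over ISG15 and AGRN, and in WT esiHDAC4 OXPT replicate A (3.46 kb, chr1:1002236-1005697), which overlaps ISG15. None of the 4 covered the start site of HES1 or HES4. Neither gene had an SE in any KO library, as was the case for 39.4% of the 1617 genes with an SE. With 2 of 8 WT and 0 of 8 KO libraries, the exact permutation p was 0.429 at each gene (adjusted p = 1). At each gene both libraries with an SE had the same letter, and 0.429 is then the smallest p possible, so the test could not decide. Across all 1617 genes 47 had an unadjusted p below 0.05 and none was called.

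The other genes of the pathway were read from a list of 49, which covers further receptors and ligands, the cleavage and glycosylation machinery, the RBPJ complex, co-repressors, regulators of receptor trafficking and further targets. HEY1 and HEY2, target genes that act in heart and vessels, had no peak in any library, which left 47. In KO, 44 had a lower mean peak number, 3 were equal and none was higher, with a median difference of -0.875 against -0.625 over all genes. The 44 of 47 stand beside the 86.5% of all genes that were lower in KO. At an unadjusted p below 0.05, 16 of 47 were lower, beside 22.2% of all genes, and none was called. By role, lower means were seen for 9 of 9 genes of receptor processing, 8 of 8 of the nuclear complex, 6 of 6 co-repressors 2 of 3 ligands, 5 of 5 glycosyltransferases, 8 of 10 regulators of trafficking and turnover, 5 of 5 targets with a peak and NOTCH4, the only further receptor.

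Among the genes named from this list for KO, ITCH, a ubiquitin ligase that acts on NOTCH receptors, differed by -3.25 (exact permutation p = 0.00449, adjusted p = 0.107), and SPEN, the co-repressor that occupies RBPJ in the absence of NOTCH, by -2.62 (exact permutation p = 0.0535). OXPT gave 29 lower and 15 higher means among the 47 and esiHDAC4 22 lower and 13 higher, with no unadjusted p below 0.05 in either. With OXPT the largest differences were at SPEN (1.62 peaks, exact permutation p = 0.258), at MAML2, a Mastermind co-activator (-1.25 peaks, exact permutation p = 0.398), and equally at RBPJ (1 peak) and at POGLUT1, which glycosylates the receptors (-1 peak). With esiHDAC4 they were at MAML3, a second Mastermind (-1.25 peaks, exact permutation p = 0.161), at the receptor NOTCH4 (1.12 peaks, exact permutation p = 0.183), and equally at RBPJ and MAML2 (-1 peak each). With OXPT, 58.6% of all genes had a lower mean. With esiHDAC4, 6972 of the 15824 genes had a lower mean and 6534 a higher one. Fewer peaks in all 4 WT pairs with OXPT were found at 4 of the 47, beside 6.84% of all genes.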

How the data were processed

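H3K27ac ChIP-seq was performed by the authors in HCT-116 cells, 16 libraries in 8 groups of 2, with 4 input samples not analysed here. As the methods and the submitters' processing notes state, reads were trimmed (Trimmomatic 0.39), aligned to hg38 (Bowtie2 2.4.4), freed of duplicates (SAMtools 1.18) and peaks were called in each library separately (MACS2 2.2.7.1). SEs were called with ROSE. The deposited peak lists give positions, a score, the summit signal as fold over local background (a ratio) and −log10 p and q values, and the authors deposited SE lists with positions. The sources used here do not state whether these were filtered for H3K4me1.

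Peaks were assigned to GENCODE 44 protein-coding genes with a flank of 10 kb and a minimum overlap of 1 base, and 533 of 272083 peaks on other contigs were left out. Reads at a summit and in its background were solved from the fold and p value. Libraries were compared by exact permutation within replicate letters (4900 arrangements, two-sided, threshold 0.05), adjusted by Benjamini-Hochberg over all genes with a value, with Python 3.11.15, numpy 2.4.6, pandas 2.3.3 and scipy 1.17.1. Read counts were not used here, so the model of the study, with replicate and condition as terms, was followed only in its blocking by replicate. Values of libraries with the same letter deviated together only weakly (r of 28 group pairs -0.0429 to 0.236, 13 above 0.1). The scripts were tested on simulated data.

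The members, the pathway list and the marker lists were chosen with earlier results of these data known. The text gives every member, the regions of each called in most libraries or with the largest difference in calls, and for the pathway list counts by role and the 3 genes with the largest difference per comparison. For KO against WT, 1 gene that this rule selects is not reported here, nor is 1 of the epithelial markers. Genes with a pattern most like a member were to be named only for members with a peak in all 16 libraries, and there was none. Alternatives were no replicate block, paired sign flips, other flanks, a −log10 q of at least 10, lists cut to equal length (1752 peaks), peaks per 10000, covered kb, other treatments of the fold, and omission of each letter and each library.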

Additional observations from a re-analysis of the deposited data

How the results depend on the processing

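With the peak number, none of the 15824 genes was called in KO against WT, in OXPT against UNT or in esiHDAC4 against esiCT. For KO against WT this count became 2090 with covered kb in place of peak number, and it ran from 0 to 909 when single libraries were left out, the 909 arising without WT esiCT OXPT replicate B. Without that library NOTCH1 (difference -3.17, adjusted p = 0.0449) and NRARP (-1.96, adjusted p = 0.0446) passed in the exact permutation test, and with covered kb NOTCH1 (-2 kb, adjusted p = 0.0320), HES4 (-1.77 kb, adjusted p = 0.0346) and NRARP (-1.08 kb, adjusted p = 0.0423) did. The strongest fold gave 0 calls for KO, but 7 with a flank of 25 kb, 4 after subtraction of the library median and 781 with uncalled genes set at the lowest fold. In its main form the fold test covered only the 484 genes with a peak in all 16 libraries, and no member was among them. For OXPT the strongest fold gave 4 calls, and 0 to 4 with libraries left out. It gave 0 without the replicate block, with paired sign flips, with a flank of 25 kb and with lists of equal length without the shortest list. It also gave 0 after subtraction of the median and with uncalled genes set at the lowest fold. The causes were not tested.

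The values of the 8 members in KO were negative in 195 of 209 fits, positive in 6 and 0 in 8. These fits are not independent, so the count does not measure certainty. Omitting the replicate block or flipping signs in pairs leaves the difference as it was, and many other fits leave out 1 library alone. Over the omissions of single letters and libraries, NOTCH1 ran from -3.75 to -2 and NRARP from -2.25 to -1.25. The positive values came from JAG1 at a −log10 q of at least 10 (0.125) and from lists of equal length, where JAG1 was at 0.375, and, without the shortest list, JAG1 at 0.292, JAG2 at 0.0417, HES1 at 0.417 and HES4 at 0.208. NOTCH1 was then at 0 and, without the shortest list, at -0.625. Lists of equal length without KO esiHDAC4 UNT replicate B, and the OXPT response within each genotype, were chosen after seeing the data. Without the replicate block, the adjusted p in KO was 0.193 for NOTCH1 and 0.190 for NRARP (exact permutation), and no call changed for the peak number.

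Small OXPT and esiHDAC4 differences changed sign. For OXPT these were NOTCH1 (0.125), JAG1 (-0.125) and HES4 (-0.250) at the stricter q, NOTCH1 (0.5) with lists of equal length, HES4 (-0.203) per 10000 peaks, JAG1 (-0.455) and HES4 (-0.750) with covered kb, and NOTCH2 (0.125), JAG1 (-0.583) and HES4 (-0.750) with equal lists without the shortest. For esiHDAC4 they were NOTCH2 (-0.125) and JAG1 (-0.125) at the stricter q, JAG1 (-0.168) and HES4 (-0.194) with covered kb, and NOTCH1 (0.292), NOTCH2 (-0.125), NOTCH3 (0.0417) and HES1 (0.250) with equal lists without the shortest. When letters or libraries were left out, the OXPT difference ran from -1.25 to 1.5 at HES4, from -1 to 0.250 at NOTCH1 and from -0.292 to 0.0417 at NOTCH2, and the esiHDAC4 difference from -1.50 to 0.750 at HES1 and from -0.792 to 0.292 at NOTCH1. Depth limits all values, since a region below the threshold of a shallow library is absent from its list whatever its acetylation.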

Other observations

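The replicate letters differed at single members in opposite ways. In WT cells HES1 averaged 1.75 ± 1.71 peaks in replicate A and 3.50 ± 1.91 in replicate B (SD, n = 4 each), whereas HES4 averaged 4 ± 1.83 in replicate A and 2.25 ± 1.5 in replicate B. The strongest fold at HES4 was 6.63 to 10.3 in the 4 WT replicate A libraries. It was 4.72 to 5.22 in the 3 WT replicate B libraries with a peak, without overlap. The remaining WT replicate B library, esiCT OXPT, had no peak at HES4. Background coverage was higher in each of these 3 replicate B libraries than in any WT replicate A library. HES4 was singled out after seeing the data, and at the other members the WT ranges of the letters overlapped. The share of all genes with such a separation was not counted. These differences between the letters were not tested.

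The 4 regions called in no WT library were each called in 1 library, and all 4 were KO esiHDAC4 replicate A libraries. In the untreated library these were a region upstream of NOTCH2 (fold 3.38) and one downstream of HES4 (fold 4.72), and in the OXPT-treated library a JAG1 intron (fold 3.99) and an exon of NRARP (fold 4.03). Among the 38 regions 17 were called in 1 library, as were 51.9% of the merged regions of the genome.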
